A study of Mus musculus with 8 samples.

Results

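Output genes of the ERK signalling pathway and RSK kinases were followed in mouse neuro2a (N2a) neuroblastoma cells with knockdown of Grp94, the endoplasmic reticulum chaperone encoded by Hsp90b1. The 10 members were chosen by gene symbol, with the measured differences of these arrays already known: Etv4, Etv5, Dusp4, Dusp6, Spry2, Spry4, Spred1, Spred2, Rps6ka2 and Rps6ka6. Of these 10 genes, 5 (Etv5, Dusp6, Spred1, Rps6ka2 and Rps6ka6) had a row in the deposited table, which names 2454 gene symbols in 2395 transcript clusters. Etv5 had 2 transcript clusters, so the members took up 6 rows. Etv4, Dusp4, Spry2, Spry4 and Spred2 had no row. For these 5 genes no value can be given in either group, and nothing is known here of their direction.

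The ERK pathway carries growth factor signals from receptor tyrosine kinases through RAS, RAF and MEK to the ERK kinases. Active ERK switches on a set of output genes, among them the ETS transcription factors Etv4 and Etv5 and several genes whose products damp the pathway, namely the ERK phosphatases of the Dusp family and the RAS pathway inhibitors of the Sprouty and Spred families. ERK also activates the RSK kinases, encoded by the Rps6ka genes, which pass the signal on to ribosomal, cytoskeletal and nuclear substrates. In neuronal cells this pathway is known for its part in the response to growth factors and in differentiation.

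The series comprises 8 arrays (Affymetrix Mouse Gene 1.0 ST), 4 from control and 4 from knockdown N2a cells, harvested after 2 days. The control cells were transfected with a vector that the labels name only Vector, called the empty vector below. The knockdown cells were transfected with vectors that express an artificial microRNA against Grp94. The study's methods name more than 1 Grp94 construct and both an empty and a non-targeting control vector, but no label ties an array to one of them. The table gives the authors' mean of each group on a log2 scale, centred for each transcript cluster, and no value for a single array. So a difference between both means can be given, but not its standard deviation, and whether the arrays of both groups overlap is not known. The labels describe the table as differentially expressed data, and its name points to a filter on expression and a cut on the p-value. For this reason all values below are descriptions of an already selected set, with no test. A gene without a row may have been measured and expressed but left out by the authors' selection. A missing row therefore does not show that a gene was absent from the cells. The centring also means that levels cannot be compared between genes.

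Hsp90b1 itself, the target of the knockdown, had authors' means of 0.74 with the empty vector and -0.78 with the knockdown, a difference of -1.52 on the log2 scale or 2.87-fold lower. The median difference of all 2395 rows was -0.16, and 59.9% of the rows were lower in the knockdown. A difference is given below as deposited and, where this changes its direction or its place among others, also after re-centring on that median. The median comes from selected rows alone and follows their split into lower and higher. Re-centred values therefore show only how a result depends on the zero point, and do not say where the true zero lies. Past a 1.3-fold difference, 16.1% of all rows (385) were lower and 6.26% (150) were higher, a split that re-centring turned to 159 lower and 527 higher. Among the 6 member rows, 3 were lower and 0 were higher past that fold (0 and 2 after re-centring), counts that were known when the members were named and from which nothing is read. The median of the 6 rows was -0.34, with Etv5 counted in both of its rows.

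Among the transcriptional outputs, Etv5 was lower in the knockdown in both of its rows. ETV5 is an ETS factor of the PEA3 group, and its transcription is a commonly used readout of fibroblast growth factor and ERK signalling. The first transcript cluster lies on the minus strand of chromosome 16 (22381386 to 22439691 in the deposited coordinates, 22 probes). Its authors' means were 0.25 with the empty vector and -0.28 with the knockdown, a log2 difference of -0.54 and 1.45-fold lower. As deposited this was the largest difference of any member, at rank 166 of 2395 from the lowest, but after re-centring it was -0.37 and smaller than those of Rps6ka6 (0.53) and Spred1 (0.41). The second transcript cluster was placed on the plus strand of chromosome 10 (71167036 to 71170604, 28 probes), although the Etv5 gene of GRCm38 is on chromosome 16. Its means were 0.26 and -0.22, a log2 difference of -0.48 and 1.40-fold lower. Both rows thus had the empty vector high and the knockdown low, and their differences were 0.05 apart. They are not separate evidence, since both transcript identifiers of the chromosome 16 row recur among the 3 of the chromosome 10 row. The second row spans 3569 bp against 58306 bp for the first, and whether its probes read the Etv5 mRNA, a copy of it elsewhere in the genome or both cannot be told from the table.

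Dusp6, an ERK-induced phosphatase gene, was also lower, unlike Spred1, the other listed feedback gene among the members. DUSP6 removes the activating phosphates of ERK in the cytoplasm and is itself induced by ERK, so that it acts as negative feedback. Its transcript cluster (plus strand of chromosome 10, 98725865 to 98730123, 28 probes) had authors' means of 0.12 with the empty vector and -0.13 with the knockdown. The log2 difference was -0.24, or 1.19-fold lower. This lay close to the middle of all rows by size, at rank 1248 of 2395, and was -0.08 after re-centring. Dusp6 and Etv5 therefore pointed the same way, with Etv5 further from zero in each of its rows.

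Spred1, a feedback inhibitor, pointed the other way. SPRED1 binds neurofibromin and brings it to the membrane, where it switches RAS off. Its transcript cluster (plus strand of chromosome 2, 116947186 to 117005077, 31 probes) had authors' means of -0.11 with the empty vector and 0.14 with the knockdown. The knockdown was the higher group, with a log2 difference of 0.25 or 1.19-fold, at rank 396 of 2395 from the highest. By size it stood at rank 1213, close to the middle of all rows as Dusp6 did.

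The RSK kinases Rps6ka2 and Rps6ka6 differed in direction. RSK kinases are phosphorylated by ERK and carry a pair of kinase domains in 1 protein, and Rps6ka2 and Rps6ka6 encode the family members RSK3 and RSK4. Rps6ka2 (plus strand of chromosome 17, 7374464 to 7507666, 43 probes) had authors' means of 0.21 with the empty vector and -0.22 with the knockdown, a 1.35-fold lower value. Rps6ka6 (minus strand of chromosome X, 108501801 to 108651554, 27 probes) had authors' means of -0.13 and 0.24, a 1.29-fold higher value that stood just short of 1.3-fold. The first stood at rank 296 of 2395 from the lowest and the second at rank 160 from the highest. The members Rps6ka2 and Rps6ka6 were the only listed ones among the 6 RSK and MSK genes Rps6ka1 to Rps6ka6.

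**Figure D1:**
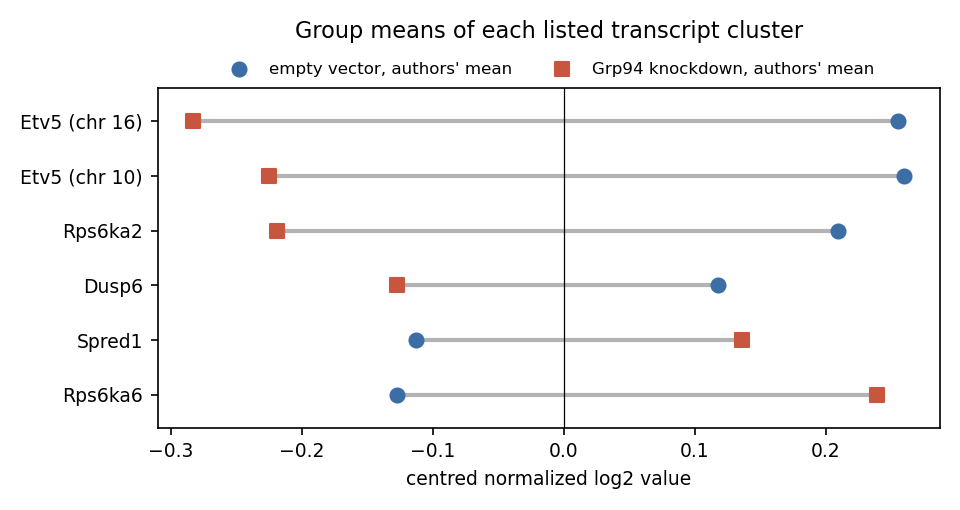
Each line joins the authors' mean of the empty vector (blue circle) and of the Grp94 knockdown (red square) for 1 transcript cluster of the listed members, on the centred normalized log2 scale of the horizontal axis; 4 arrays entered each mean and no spread is given. The knockdown lies to the left for both Etv5 rows, Rps6ka2 and Dusp6, and to the right for Spred1 and Rps6ka6.

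**Figure D2:**
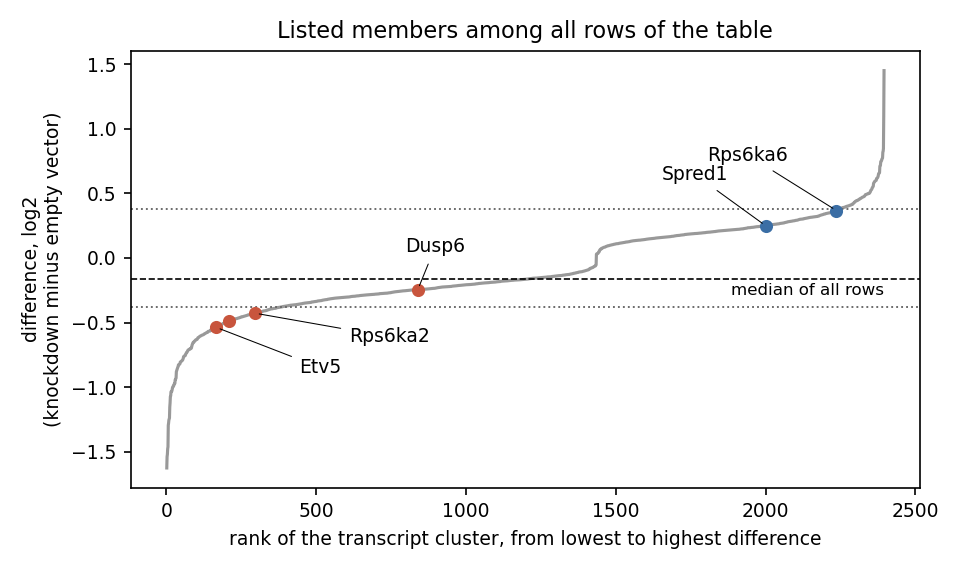
The grey line plots the log2 difference (knockdown minus empty vector) of all 2395 transcript clusters in order of rank, with the member rows as points, dotted lines at a 1.3-fold difference and a dashed line at the median of -0.16. Both Etv5 rows and Rps6ka2 lie under the lower dotted line, Dusp6 lies between that line and the median, and Spred1 and Rps6ka6 lie between zero and the upper dotted line.

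The listed members also differ in the sequence before their start, which the choice of members did not use. RefSeq start windows of GRCm38.p6 were at hand for 7 of the 10 members, as 9 windows, and for all 5 listed ones. Only the 250 bases before each annotated start were read. They are printed here by direction for reading only. The directions were known when the members were chosen, and 5 genes are too few to tie a motif to a direction. Capitals mark matches to CCAAT, the box bound by NF-Y. They also mark ACGTG, a form of the HIF core, and TGAATG, a form of the Capicua core. Other forms of both cores were not searched. Capicua is a repressor that ERK inactivates and that is known to act on Etv4 and Etv5. Either strand was searched, so that the reverse complement of each motif is in capitals too.

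The windows of the genes that were lower are these, with the strand of each gene. Etv5 has 2 starts, at chr16:22439571-22439820 and chr16:22438369-22438618 on the minus strand. The Dusp6 window is chr10:99262981-99263230 and that of Rps6ka2 is chr17:7169865-7170114, both on the plus strand.
Etv5 window 1: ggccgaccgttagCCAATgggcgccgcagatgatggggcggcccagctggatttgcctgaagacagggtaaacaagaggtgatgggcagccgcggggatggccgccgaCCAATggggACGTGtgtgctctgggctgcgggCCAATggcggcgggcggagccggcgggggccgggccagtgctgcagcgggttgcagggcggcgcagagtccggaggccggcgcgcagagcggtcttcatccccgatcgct
Etv5 window 2: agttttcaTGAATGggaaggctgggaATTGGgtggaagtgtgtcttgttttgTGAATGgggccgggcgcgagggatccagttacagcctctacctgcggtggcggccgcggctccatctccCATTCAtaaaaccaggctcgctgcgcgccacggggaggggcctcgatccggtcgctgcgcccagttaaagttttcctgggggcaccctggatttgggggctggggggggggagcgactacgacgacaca
Dusp6: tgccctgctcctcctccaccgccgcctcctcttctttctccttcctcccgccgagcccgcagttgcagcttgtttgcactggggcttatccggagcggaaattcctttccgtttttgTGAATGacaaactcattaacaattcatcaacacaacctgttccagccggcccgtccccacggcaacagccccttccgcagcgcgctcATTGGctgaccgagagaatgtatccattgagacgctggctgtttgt
Rps6ka2: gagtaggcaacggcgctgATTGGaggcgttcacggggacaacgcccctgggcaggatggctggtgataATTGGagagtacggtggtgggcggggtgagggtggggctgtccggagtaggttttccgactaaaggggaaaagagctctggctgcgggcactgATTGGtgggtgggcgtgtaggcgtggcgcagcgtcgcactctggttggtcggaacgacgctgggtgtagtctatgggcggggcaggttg

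The windows of the genes that were higher are at chr2:117120821-117121070 on the plus strand for Spred1 and at chrX:111537960-111538209 on the minus strand for the first start of Rps6ka6. The second Rps6ka6 window, which had no match to the motifs searched, is not printed.
Spred1: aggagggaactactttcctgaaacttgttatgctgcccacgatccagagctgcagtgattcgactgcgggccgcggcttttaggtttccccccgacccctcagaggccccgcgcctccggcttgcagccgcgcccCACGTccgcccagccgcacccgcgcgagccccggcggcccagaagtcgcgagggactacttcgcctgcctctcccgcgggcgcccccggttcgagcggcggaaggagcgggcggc
Rps6ka6 window 1: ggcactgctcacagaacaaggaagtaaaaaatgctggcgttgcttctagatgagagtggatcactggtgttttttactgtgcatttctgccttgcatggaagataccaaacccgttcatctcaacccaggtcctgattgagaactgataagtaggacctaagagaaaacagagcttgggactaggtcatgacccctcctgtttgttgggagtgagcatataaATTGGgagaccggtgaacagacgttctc

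CCAAT was found in 33.8% of all 32851 RefSeq windows of the same length. It occurred 3 times in the first Etv5 window, 3 times in that of Rps6ka2, and once each in the second Etv5 window, in that of Dusp6 and in the first Rps6ka6 window. The windows of Spred1, of the unlisted Spry2 and Spred2, and the second Rps6ka6 window (chrX:111463498-111463747) had no match. The 8-letter Capicua form TGAATGNA, which begins with the shorter core, was in none of the 9 windows and in 3.2% of all. Other forms of the Capicua and HIF sites were not searched, so a missing match does not show that such a site is absent. The shorter core TGAATG was searched only after the windows had been read, and it was found 3 times in the second Etv5 window, once in that of Dusp6 and in 10.9% of all windows. ACGTG was found once in the first Etv5 window and once in that of Spred1, against 16.6% of all windows. The ETS motif CCGGAAGT (2.88% of all windows), the CREB and ATF motif TGACGTCA (1.55%), the AP-1 motif TGANTCA (6.75%) and the ATF4 and CEBP motif TGATGNAA (3.45%) had no match before any member. By base composition the windows ran from 46.4% G and C in the first Rps6ka6 window to 71.2% in the first Etv5 window, against a median of 52.4% over all windows. A match only says that these letters are there, and binding was not measured.

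**Figure D3:**
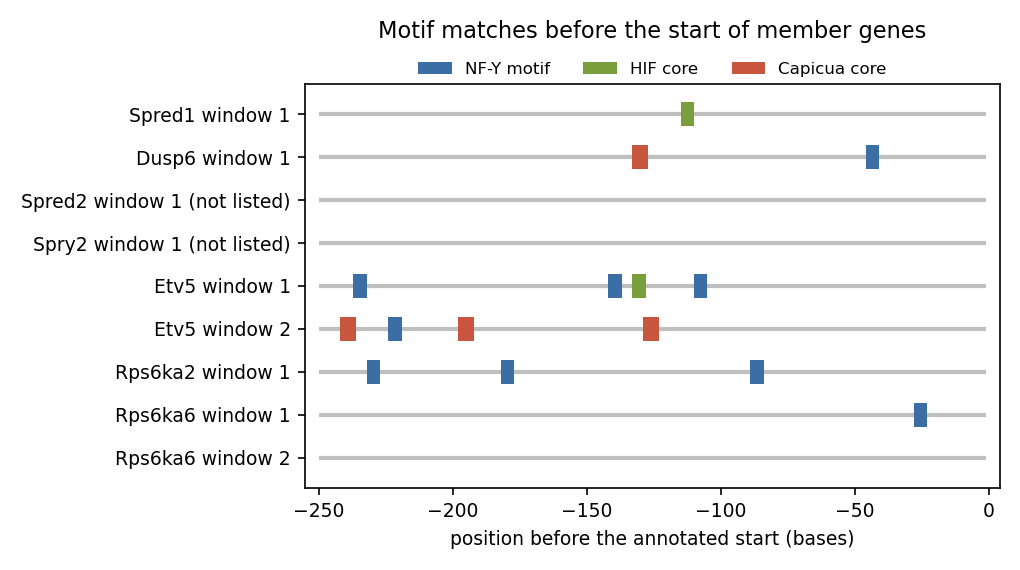
Each grey line is the stretch of 250 bases before an annotated start of a member gene, with the distance to the start in bases on the horizontal axis. Coloured blocks are matches on either strand to the NF-Y motif (blue), the HIF core form ACGTG (green) and the shorter Capicua core form TGAATG (red). NF-Y matches stand in both Etv5 windows, in those of Dusp6 and Rps6ka2 and in the first of Rps6ka6, and Capicua core matches in the second Etv5 window and that of Dusp6.

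The other genes of the pathway place the members among their partners. In all, 10 lists by role held 198 genes, members included, of which 40 had a row. These came to 43 transcript clusters, 24 lower and 19 higher. Past 1.3-fold, 9 of the 43 were lower and 2 were higher, against 16.1% and 6.26% of all 2395 rows. Re-centring gave 2 lower and 13 higher past that fold, against 159 and 527 of all rows. Nothing about the pathway is read from these counts. Leaving the members aside, 20 of the remaining 37 rows were lower (54.1%, against 59.9% of all rows), and their median difference was -0.11, against -0.16.

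The kinase cascade itself was listed in part. Of 21 genes for RAF, MEK, ERK and their scaffolds, 6 had a row. All 6 rows were lower, with a median of -0.22, where 59.9% of all rows were lower with a median of -0.16. After re-centring, 2 of them (Araf and Mapksp1) turned higher. Map2k1, which encodes MEK1, had the largest difference and the only one past 1.3-fold. Its authors' means were 0.21 and -0.24, a log2 difference of -0.45. Mapk3, which encodes ERK1, had a log2 difference of -0.26, and Araf, a RAF kinase, one of -0.11. Of the endosomal scaffold that holds MEK1, Robld3 (now Lamtor2) had -0.28 and Mapksp1 (now Lamtor3) -0.08, and the row of the latter was placed on chromosome 7 although its gene in GRCm38 is on chromosome 3. Ppp1ca, the phosphatase subunit that works with SHOC2 to activate RAF, had -0.19. Rras was the only gene with a row among 16 RAS proteins and RAS GAPs and had -0.29.

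Upstream of RAS the listed genes were mixed. Among 25 receptor tyrosine kinases, 3 had a row. The collagen receptor Ddr2 had a log2 difference of -0.43 and the neuregulin receptor Erbb3 one of -0.31, whereas Igf1r, the receptor of insulin-like growth factors, had 0.29. Of 23 adaptors and exchange factors, Shc1 had -0.32, while Shc3, its neuronal relative, had 0.33, the phosphatase Ptpn11 (SHP2) 0.22 and the adaptor Crkl 0.11. Fgfr1, Egfr, Grb2 and Sos1 had no row.

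Next to the RSK kinases, Mknk1 had a larger difference than either of them as deposited, but after re-centring (-0.45) it was smaller than that of Rps6ka6 (0.53). It encodes MNK1, which ERK and p38 activate and which phosphorylates the translation factor eIF4E. Its authors' means were 0.34 with the empty vector and -0.28 with the knockdown, a log2 difference of -0.62. In the list of 8 ERK-dependent kinases, then, Mknk1 and Rps6ka2 were lower and Rps6ka6 was higher.

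Among the ETS factors, Etv1 of the same PEA3 group as Etv5 was higher in both rows that carry its symbol. The first Etv1 row (10 probes) had a log2 difference of 0.31, and the second, which also carries the symbol Gm5454 and was placed on chromosome 13, had 0.36. The Etv1 gene of GRCm38 is on chromosome 12. Whether the second row reads Etv1, Gm5454 or both cannot be told, so it is not taken as separate evidence. Against the Etv5 rows at -0.54 and -0.48, the PEA3 genes thus stood on opposite sides of zero, also after re-centring, and Etv4 had no row. Ets2 had 0.20, and a row shared by Elf2 and 4930577N17Rik had 0.43. Elk3 and Cdk17 share 2 rows on opposite strands, with -0.25 on the minus strand, which is that of Elk3 in RefSeq, and 0.24 on the plus strand. Of 22 genes in the list, Cic (Capicua), Ets1, Elk1 and Elk4 were among the 17 without a row.

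The feedback lists were mixed as well. Of 24 dual specificity phosphatases, Dusp6 was joined by Dusp10, which acts on p38 and JNK, with a log2 difference of -0.44, and by Dusp2, a nuclear phosphatase of ERK and p38, with 0.30. Of 14 genes in the Sprouty and Spred list, Spred1 was joined by Il17rd (Sef), an inhibitor of fibroblast growth factor signalling, with 0.36, by Flrt3, which binds fibroblast growth factor receptors and promotes their signal, with 0.19, and by Errfi1 (MIG6), an inhibitor of the EGF receptor, with -0.19. Dusp1, Dusp4, Dusp5, Spry1, Spry2 and Spry4 had no row.

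Immediate early genes, which ERK switches on first, were listed in 7 of 28 cases. Ier3 had the largest difference of any pathway row, with authors' means of 0.54 and -0.39 and a log2 difference of -0.93, and Klf6 had -0.24. Nr4a3 had -0.15, which turned higher after re-centring. On the higher side were Nr4a2 (0.42), Egr1 (0.32), Klf10 (0.21) and Egr2 (0.13). Fos, Fosl1, Jun, Junb, Myc and Srf had no row. Of 18 other output genes, Plk3, a stress-responsive kinase, had -0.49 and the neuropeptide precursor Vgf -0.28, whereas the EGF receptor ligand Hbegf had 0.16. Ccnd1, which encodes cyclin D1, had -0.16, which turned to just above zero after re-centring.

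**Figure D4:**
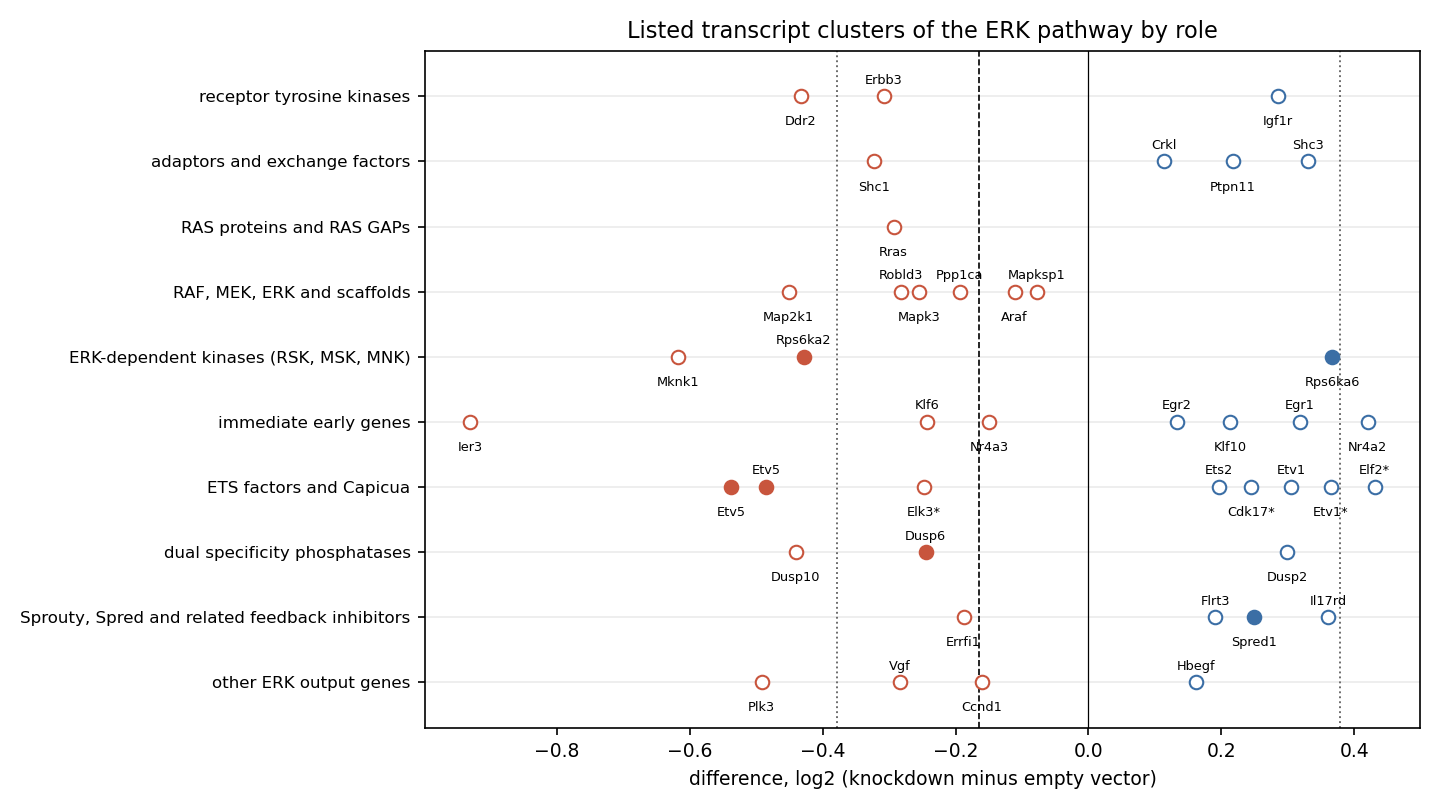
Each point is 1 transcript cluster of the ERK pathway, placed by its log2 difference (knockdown minus empty vector) on the horizontal axis and by its role on the vertical one, with filled points for the members, an asterisk for rows that carry several symbols (the first is printed), dotted lines at a 1.3-fold difference and a dashed line at the median of all rows. The row of RAF, MEK, ERK and scaffolds lies wholly left of zero, with Araf and Mapksp1 right of the median line, and in the ETS row both Etv5 points lie left while both Etv1 points lie right.

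Markers were looked up for the cell type named by the labels. Of 16 genes of neuroblastoma and neuronal cells, 7 had a row, 4 lower and 3 higher. The largest difference was 0.49 for Dbh, the enzyme that makes noradrenaline. Th, an earlier enzyme of that route, had -0.12, which turned higher after re-centring. None of 13 glial, microglial and fibroblast markers had a row, which in a selected set does not show that they were not expressed. As the values are centred, these rows do not show whether a marker was expressed at a high or low level, and their part in the differences above was not tested. In RNA from whole cultures, a lower value in every cell and a lower share of cells that express a gene cannot be told apart.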

How the data were processed

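The authors hybridised labelled cDNA from transfected N2a cells to 8 arrays (Affymetrix Mouse Gene 1.0 ST) and used Agilent GeneSpring GX, leaving out weakly expressed genes. The values deposited by the authors are normalized log2 means of each group (4 arrays each), centred for each transcript cluster. Probe summarization, normalization between arrays and genome build are not given in the sources used here. Further columns hold the authors' own comparison (fold change, direction, p-value and adjusted p-value). The fold change served only to settle the scale: in all 2395 rows both means differed by its log2 within 0.001, and lay on opposite sides of 0. No other use was made of these columns.

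From both means the difference (knockdown minus empty vector) was computed for all 2395 rows, of which 258 carry several symbols and 44 none. Symbols were split at the bar, and list genes were matched through GRCm38.p6 by symbol, synonym or Entrez identifier (226 of 227). Rows past a 1.3-fold difference, which is 0.38 on the log2 scale, were counted. No test was run, because no array has a value of its own, and the number of arrays limits the precision. Alternatives changed the fold, the zero point and the handling of genes with several rows or rows with several symbols. Motifs were searched in the 250 bases before each RefSeq start. Protein sequences were not analysed here, and some genes counted in the lists are not reported here by name.

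The members and lists were chosen with earlier results of these data known. The genes to be named were all members, Hsp90b1 and, in each list, up to 5 rows past 1.3-fold. The other listed pathway genes and the markers were named after their values were seen. Counting and motif search were tested on simulated data. Python 3.11.15, numpy 2.4.6, pandas 2.3.3 and matplotlib 3.10.9 were used.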

Additional observations from a re-analysis of the deposited data

How the results depend on the processing

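No paired analysis was possible because the deposited table holds 1 mean for each group and no value for a single array. For the same reason a fit with the replicate number as a block and the removal of each replicate in turn could not be run. Re-centring on the median of all rows kept the direction of each member row, with log2 differences of -0.37 and -0.32 for Etv5, -0.26 for Rps6ka2, -0.080 for Dusp6, 0.41 for Spred1 and 0.53 for Rps6ka6. It shifts all rows by the same amount, and since it uses only listed rows it does not say where the true zero lies. The mean of both Etv5 rows was -0.51.

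Counts follow the fold by construction. Of all rows, 761 were lower and 355 higher past 1.2-fold, and 128 and 34 past 1.5-fold, in place of 385 and 150. Re-centring gave 159 and 527. Of the pathway rows, 14 were lower and 10 higher past 1.2-fold, 2 and 0 past 1.5-fold, and 2 and 13 after re-centring, in place of 9 and 2. With rows of 1 symbol alone, 1 pathway row was higher. Of the member rows, 3 were lower and 1 was higher past 1.2-fold, 0 and 0 past 1.5-fold, and 0 and 2 after re-centring, in place of 3 and 0. The alternatives for member rows and the shorter Capicua core were chosen after seeing the data.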
